A study of Citrullus lanatus with 6 samples.

Results

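In the watermelon (Citrullus lanatus) gene models counted here, 1108 of 18861 annotated genes carried 10000 or more bases of intron, which is 5.87% of them. The members were found from the gene coordinates alone, as the span from gene start to gene end minus the summed exon length, so the value is the sum over all introns of a gene and not the length of a single one. No expression value entered this rule, but only genes of the count table could be members, and each member had a count in some library. Whether that table leaves out annotated genes without counts was not tested. The rule was chosen with earlier results of these data known. Another 15252 annotated genes had less intron, 4 to 9990 bases, and 2501 had none. The whole count table held 19742 genes, including models outside the annotation.

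Leaves of the cultivar Crimson Sweet were compared in 2 groups of 3 independent plants, 1 library per plant. Drought-stressed plants stood in pots brought to 35 ± 5% soil moisture by withholding water, and control (well-watered) plants in pots held at 95 ± 5%. Both groups were sampled 8 days after the start of the drought treatment (8 DAT), when the plants were 89 days old according to the labels. The labels put the start of withholding at 28 days after transplanting, and the study's methods give another day. Reads were assigned to gene models of another cultivar, Charleston Gray, so both groups share any mismatch between the cultivars. The question asked was how leaf transcripts of genes with long introns stood in drought against well-watered leaves, and whether their control level, change, spread between plants and balance of directions differed from those of other intron-bearing genes.

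Introns are transcribed with the gene and removed by the spliceosome, so a gene with much intron takes longer to transcribe than its mature transcript would need. In plants most introns are short, and long ones are often enlarged by inserted transposable elements. Such introns can hold other genes, and in Arabidopsis full-length transcripts of some such genes depend on proteins that bind the silenced elements.

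The total count was 22196375, 22351455 and 21143377 in drought replicates 1, 2 and 3, and 20990361, 17907062 and 21852732 in control replicates 1, 2 and 3. Across genes, log2 CPM (counts scaled to library size) correlated at 0.948 to 0.968 within drought and at 0.847 to 0.942 within control, where both pairs with control replicate 2 were the lowest. No pair of libraries in a group agreed within sampling noise. Of all 16318 genes tested, 2185 were called by the quasi-likelihood test of edgeR at an adjusted p under 0.05, 866 higher and 1319 lower in drought. Summed FPKM (fragments per kilobase of exon, scaled to library size) of 11 leaf mesophyll markers lay between 9754 and 13266 in drought plants and between 13679 and 50452 in control plants, none of the markers was at 0 in either group, and of 9 tested 0 were called higher and 1 lower. The sums were 40.3 to 67.5 in drought against 116 to 181 in control for the single phloem marker, 354 to 488 against 567 to 842 for 27 xylem and cell wall markers, and 528 to 558 against 546 to 650 for 25 markers of dividing cells. The phloem marker was called lower, of 27 tested xylem and cell wall markers 4 were higher and 8 lower, and of 24 tested markers of dividing cells 5 were higher and 6 lower. The markers were picked by words in gene descriptions, which come mostly from genes that the study called on these same samples. Their sums and calls are therefore not an independent reading of tissue makeup. Of these markers 1 is itself a long-intron gene, and the part of tissue makeup in the results was not tested. In whole leaves fewer cells of a type and less RNA per cell cannot be told apart.

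The long-intron genes held 31.9% of all intron bases of annotated genes and 11.4% of the exon bases. Their median intron length was 14120 bases, with quartiles of 11566 and 19398 and a highest value of 168909. A median of 84% of their span was intron, against 58.8% in the remaining intron-bearing genes. They also had more exon sequence, with a median of 2849 bases against 1461. Of the 1108 genes, 256 held 20000 or more bases of intron and 16 held 50000 or more. Another gene touched the span of 151 members (13.6%), in 91 of them as a whole gene inside it and in every case on the opposite strand. The same was true of 6.33% of the remaining intron-bearing genes. Their share of the annotated genes ran from 4.81% on chromosome 1 to 7.51% on chromosome 11 among the numbered chromosomes, and was 2.58% on unplaced sequence.

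In control leaves the long-intron genes had nearly the same median FPKM as the remaining intron-bearing genes, with closer quartiles. Per length, the median mean FPKM of the members was 11.0 in drought (quartiles 4.63 and 21.3) and 8.54 in control (3.29 and 17.1), against 8.72 in drought (1.42 and 24.7) and 8.53 in control (1.72 and 24.1) for the remaining genes. In CPM, which is not divided by length, the median of the tested members was 32.5, 33.4 and 32.4 in the drought plants and 26.7, 27.1 and 28.4 in the control plants, above the 17.6, 17.9 and 18.1 in drought and 18.7, 19.7 and 17.5 in control of the remaining genes. FPKM of 1 or more was reached by 88.0% of the members in drought and by 88.0% in control, against 77.8% and 79.3% of the remaining genes in the same groups. Few members were abundant. FPKM of 100 or more was reached by 27 members (2.44%) in drought and 18 (1.62%) in control, against 6.23% and 6.01% of the remaining genes.

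The 5 members with the highest control FPKM did not pass the test, and none has a description in the sources used here. ClCG05G009520 (chr5:10465687-10479766) averaged 1622 ± 172 FPKM in drought and 1788 ± 841 in control (SD, n = 3 each). ClCG05G025680 averaged 1034 ± 117 FPKM in drought and 867 ± 273 in control. Both lay far above the level of a typical member, and their control plants varied more than their drought plants. The other 3, ClCG11G017030, ClCG10G016190 and ClCG05G024500, had control means of 359, 330 and 269 FPKM, and the adjusted p of the 5 from edgeR lay between 0.179 and 0.993.

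In drought the balance of directions among the long-intron genes lay on the side of higher levels. Of the 1108 members 1034 had enough counts to be tested and 74 had not. With the edgeR test 99 members were higher (9.57%) and 39 lower (3.77%) in drought-stressed leaves. Over all tested genes 5.31% were called higher and 8.08% lower. The total share called, 13.3%, was close to the 13.4% of all tested genes, and the difference lay in the split between directions. These are descriptions of the list, which was not tested as a whole. Higher calls made up 71.7% of the called members, against 39.6% of all called genes and 41.3% in remaining intron-bearing genes weighted to the members' mean counts. With exon length also weighted, the share was 43.5%. The median log2 fold change was 0.22 over the tested members (quartiles -0.20 and 0.62) and -0.03 over all tested genes. It was -0.02 in genes of like count and 0.06 in genes of like count and exon length. Of the tested members 672 (65.0%) had a log2 fold change above 0, against 48.5% of all tested genes, 49.0% of genes of like count and 53.8% of genes of like count and exon length. Whether exon length or another feature of these genes accounts for the remainder was not tested.

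The number of calls depended on single plants. Without drought replicate 1, 16 members were higher and 8 lower (2.32% called), against 1.26% and 1.70% of all tested genes (2.96% called). Without drought replicate 2, 9 were higher and 11 lower (1.93% called), against 1.27% and 1.95% of all (3.22% called). Without drought replicate 3, 6 were higher and 6 lower (1.16% called), against 0.981% and 1.19% of all (2.17% called). Leaving out control replicate 1 gave 19 higher and 13 lower (3.09% called), against 1.49% and 2.53% of all (4.02% called). Leaving out control replicate 2 gave 188 higher and 78 lower (25.7% called), against 11.4% and 14.9% of all (26.2% called). In each of these fits a smaller share of the members than of all tested genes was called. DESeq2 called 256 members, or 24.8%, against 25.3% of all, and 66.0% of these members were higher, against 39.7% of all called genes. The share of called members that was higher was 45.0% and 50.0% without drought replicates 2 and 3, against 39.4% and 45.2% of all called genes in the same fits. With the replicate number as a block it was 58.1% (72 higher and 52 lower), against 35.5% of all called genes, where 5.08% of all tested genes were higher and 9.22% lower (14.3% called). The median log2 fold change of the members stayed between 0.19 and 0.29 with each plant left out. Scaling by library totals in place of TMM factors moved the median of all tested genes up by 0.165 and that of the members to 0.39. The difference from genes of like count was then 0.25, against 0.24 with TMM factors. With library totals 92 members were higher and 26 lower, against 5.73% and 5.26% of all tested genes (11.0% called), so that 78.0% of the called members and 52.1% of all called genes were higher.

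The median change was higher in each class of genes with more intron. The median log2 fold change was -0.33 in 1828 tested genes with no intron, -0.22 in 2759 with under 1000 bases, -0.06 in 5394 with 1000 to 2999 and 0.06 in 4775 with 3000 to 9999. Within the members it was 0.20 in 795 genes with 10000 to 19999 bases and 0.29 in 239 genes with 20000 or more. Of the members with 20000 or more bases 33 were called higher (13.8%) and 8 lower (3.35%), whereas genes with no intron had 76 higher (4.16%) and 237 lower (13.0%). Exon length rose in the same order, with medians of 906 bases in genes with no intron and 3748 in the class with the most. Among genes with 1000 to 1999 bases of exon the medians were -0.20, -0.24, -0.07, 0.01, 0.14 and 0.26 in the same order of classes, the last of them over 30 genes. Among genes with 3000 to 4499 bases of exon the class with 20000 or more bases (0.13, 55 genes) lay below that with 10000 to 19999 (0.30, 248 genes). With under 1000 bases of exon, genes with 10000 to 19999 bases of intron had -0.03 (30 genes), against 0.02 with 3000 to 9999. With 2000 to 2999 bases of exon, genes with no intron (0.18) lay above all classes but the last (0.42). With 4500 or more, the last 3 classes had medians of 0.19, 0.31 and 0.33. Their calls were 11 higher and 8 lower of 170 genes, 7 and 12 of 102, and 10 and 5 of 92. Over all tested genes 5.31% were higher and 8.08% lower. Among members with this much exon and 10000 to 19999 bases of intron, lower calls thus outnumbered higher ones. Without control replicate 2 the class medians ran from -0.27 to 0.29 and with library totals from -0.15 to 0.48, in the same order of classes. The medians of the single classes in these fits were added after seeing the data.

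**Figure D1:**
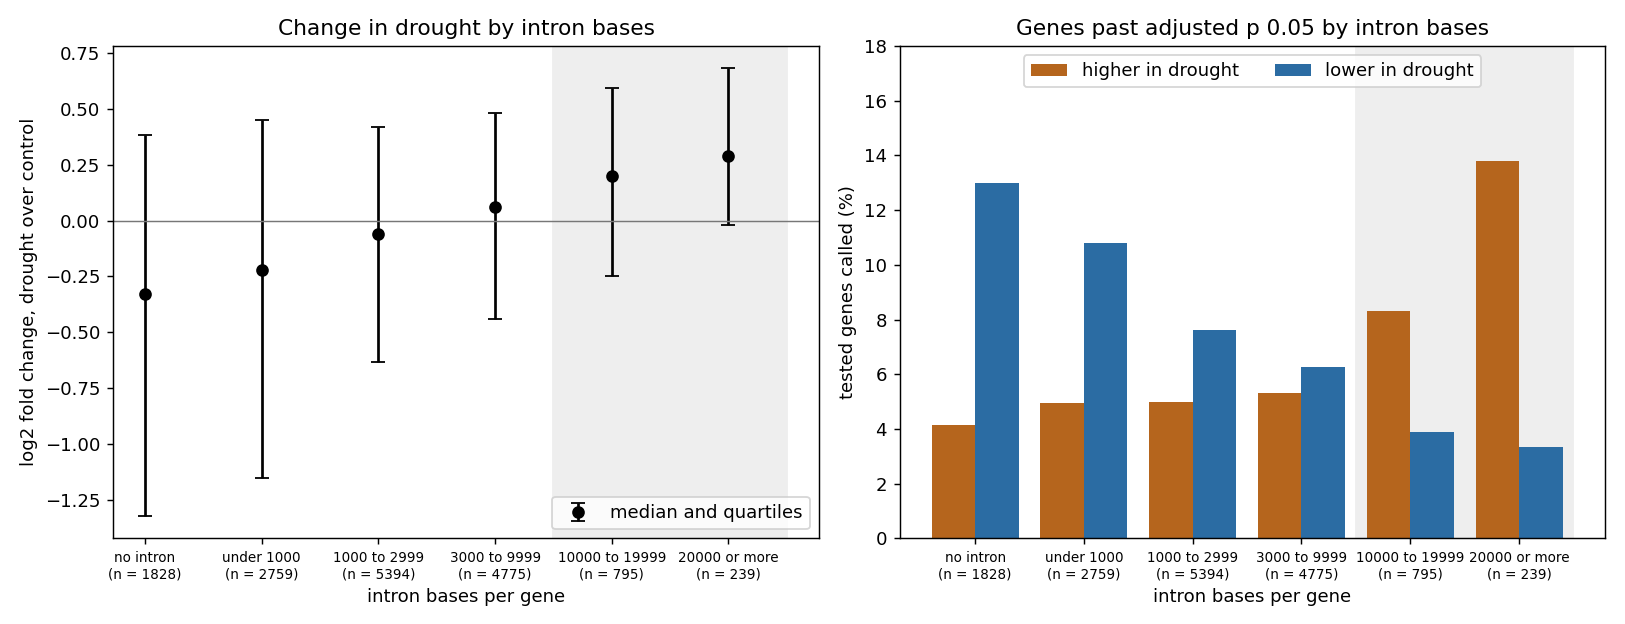
Left, median log2 fold change of drought over control (points) with quartiles (bars) for tested annotated genes by intron bases, on a linear axis. Right, percent of tested genes called higher or lower in drought. The shaded classes are the long-intron genes, with medians of 0.20 and 0.29 and more higher than lower calls, while the classes under 10000 bases had more lower than higher calls.

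Gene by gene, all 3 drought plants lay above all 3 control plants in 343 members (33.2%), against 19.9% of all tested genes. All 3 lay below in 117 members (11.3%), against 18.5% of all. A fold of 2 or more together with a call was reached by 65 members upwards (6.29%) and 37 downwards (3.58%), against 4.33% and 7.49% of all tested genes. In 5 groups of like size by mean count, from the lowest to the highest, 17, 30, 25, 20 and 7 members were higher and 10, 6, 5, 10 and 8 lower, and the member medians of 0.19, 0.37, 0.25, 0.19 and 0.16 lay above those of the remaining genes (-0.11, 0.01, -0.02, -0.02 and -0.00) in each group. Higher calls outnumbered lower ones in the 4 groups of lower count, where 8.21, 14.5, 12.1 and 9.66% of the members were called higher, against 3.69, 5.79, 6.41 and 5.81% of the remaining genes. In the group of highest count the members had fewer calls than the remaining genes, with 3.38% higher and 3.86% lower against 5.48% and 6.57%. By chromosome the member median lay above that of the remaining genes on each of the 11 numbered chromosomes, by least on chromosome 2 (-0.01 against -0.02, 3 higher and 5 lower of 82). On chromosome 11 it was 0.38 against -0.02, and the 4 tested members on unplaced sequence (chromosome 0) had -0.46 against 0.02. The 137 tested members with another gene in or touching the span had 16 higher and 2 lower and a median of 0.27, and the 897 with none had 83 higher and 37 lower and a median of 0.22. The kit does not mark strand, so reads from overlapping genes could not be assigned by strand.

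In each plant, the level of a gene was set against its mean over the 6 plants. The members' median deviation was 0.15, 0.14 and 0.12 (log2) in drought replicates 1, 2 and 3, and -0.21, -0.16 and 0.00 in control replicates 1, 2 and 3. Genes of like count lay between -0.02 and 0.03 in all 6. Control replicates 1 and 2 were thus low for these genes and control replicate 3 was not. The long-intron genes took 6.91, 6.93 and 6.67% of the counts in the drought plants and 5.30, 6.16 and 5.75% in the control plants. The means were 6.83 ± 0.143% in drought and 5.74 ± 0.432% in control (SD, n = 3 each), a difference of 1.10 percentage points with no overlap of the groups.

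**Figure D2:**
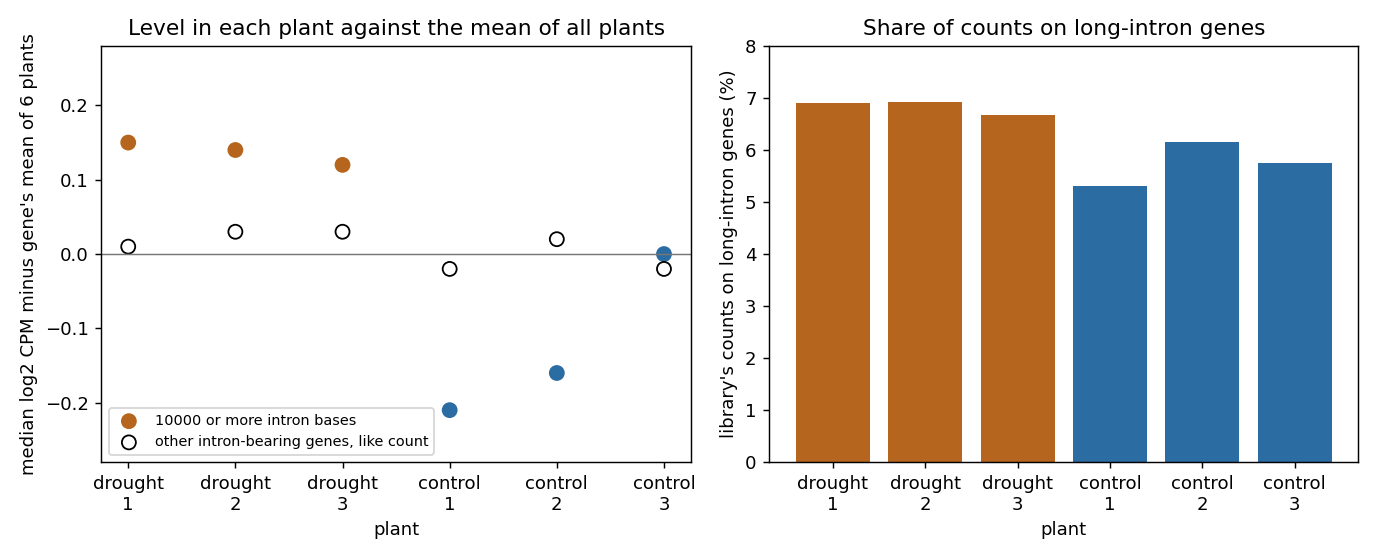
Left, median deviation (log2 CPM) from each gene's mean of 6 plants, for tested long-intron genes (filled) and other intron-bearing genes weighted to like count (open), in 3 drought plants and 3 control plants. Right, percent of each library's counts on long-intron genes. Drought plants lay at 0.12 to 0.15 on the left and 6.67 to 6.93% on the right, control plants at -0.21 to 0.00 and 5.30 to 6.16%.

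Between the plants of a group the long-intron genes varied less than other genes of like count with all plants included. The median SD of log2 CPM was 0.160 in drought, against 0.199 in genes of like count and 0.187 in genes of like count and exon length. In control it was 0.369, against 0.437 and 0.400. The SD was larger in control than in drought in 835 of 1034 tested members (80.8%). Control replicate 2 was the plant farthest from the control median in 464 members (44.9%) and in 52.7% of the remaining genes. Without control replicate 2 the order turned, to 0.256 in members against 0.240 in genes of like count, so the lower control spread of the members rested on that plant.

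**Figure D3:**
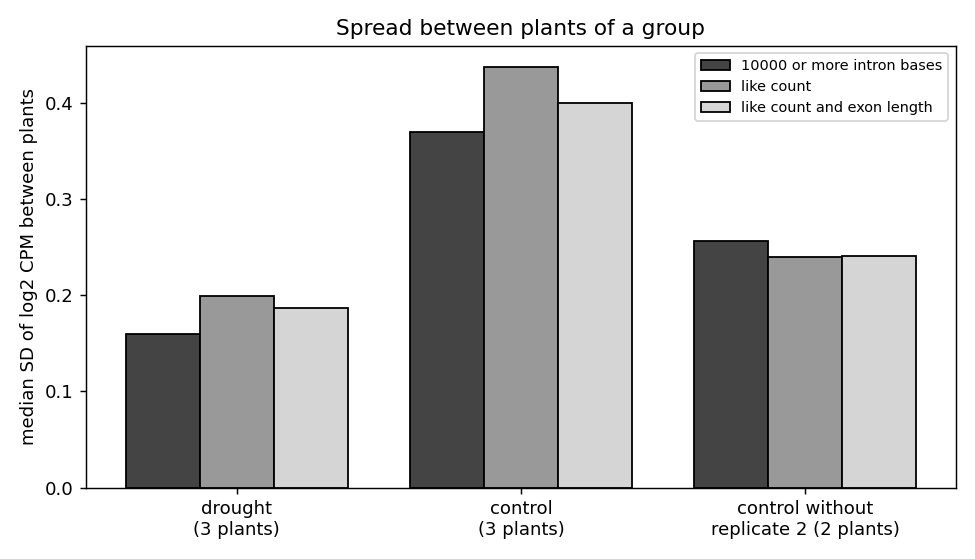
Median SD of log2 CPM between the plants of a group for tested long-intron genes (dark), genes of like count (grey) and genes of like count and exon length (light). In drought and in all control plants the dark bar is the lowest (0.160 and 0.369), and without control replicate 2 it is the highest (0.256).

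Among single members a rise of over 5 on the log2 scale was seen in ClCG06G001050 (chr6:1014815-1028591, 11641 bases of intron), described as Hfr-2-like and so named after a Hessian fly response gene of wheat. It stood at 378, 479 and 212 CPM in drought replicates 1, 2 and 3 and at 1.13, 14.2 and 5.75 CPM in control replicates 1, 2 and 3. The groups were far apart in every plant, with a log2 fold change of 5.66 (SE 0.92, edgeR adjusted p = 0.0129). The alpha subunit gene of 2-oxoisovalerate dehydrogenase, ClCG08G003330 (chr8:8462362-8475188), belongs to the breakdown of branched-chain amino acids. It stood at 19.5, 46.6 and 16.5 CPM in drought and 1.78, 2.82 and 1.58 CPM in control (log2 fold change 3.74, SE 0.50, edgeR adjusted p = 0.00833). Each drought plant was several times above each control plant, and the call held in all 11 alternatives.

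A pair of nearby models on chromosome 1 described as LINE-1 retrovirus-related Pol polyproteins, the replication protein of a retrotransposon family, also rose. ClCG01G016470 (chr1:30852056-30883548, 23693 bases of intron) stood at 57.2, 140 and 81.7 CPM in drought and 14.6, 13.8 and 17.3 CPM in control, with a log2 fold change of 2.61 (SE 0.35, edgeR adjusted p = 0.00833). ClCG01G016450 averaged 22.5 ± 11.6 CPM in drought and 4.83 ± 0.796 CPM in control (SD, n = 3 each), with a log2 fold change of 2.22 and an adjusted p of 0.0205 from edgeR. In both the drought plants varied and the control plants did not overlap with them. Being copies of a repeat family, they may share reads with each other and with other copies.

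The remaining large rises were ClCG03G003930 (11-beta-hydroxysteroid dehydrogenase-like), ClCG05G010870 (unknown protein), ClCG11G002000 (acid phosphatase-like, of a class that frees phosphate), ClCG05G021180 (amino acid transporter), ClCG05G003940 (mutS, which recognises mismatched bases) and ClCG03G013920 (callose synthase, which builds a glucan of cell plates and plasmodesmata). Their log2 fold changes were 5.68, 3.27, 2.86, 2.59, 2.37 and 2.11. ClCG03G003930 had only 7 counts in control, all of them in control replicate 1. Calls were lost without drought replicate 1 for ClCG06G001050 (adjusted p = 0.0510) and without drought replicate 3 for ClCG05G010870 (0.0537). With any single drought plant left out ClCG03G003930, ClCG11G002000, ClCG05G003940 and ClCG03G013920 had adjusted p of 0.0532 to 0.146, and without drought replicates 2 or 3 ClCG05G021180 and ClCG01G016450 had 0.0576 to 0.0765, as edgeR gave them. Without control replicate 1 the call was also lost for ClCG11G002000 (0.144) and ClCG01G016450 (0.0781), and in that fit ClCG03G003930 had no count left in the control plants.

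The callose synthase model ClCG03G013920 lies between ClCG03G013910, also described as callose synthase, and ClCG03G013930, glucan synthase-like 10, both of them long-intron genes on the same strand. These neighbours were looked at after their values were seen. ClCG03G013920 stood at 13.5, 14.2 and 11.7 CPM in drought and 2.91, 2.14 and 4.06 CPM in control. The 3 models had log2 fold changes of 1.77 (adjusted p = 0.0501 from edgeR), 2.11 (0.0111) and 1.90 (0.0227), from the first to the last along the chromosome, and whether they are 1 gene or several was not tested.

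Among called members whose groups did not overlap, the largest fall belonged to ClCG09G000750 (chr9:647416-660564, 10008 bases of intron), a cell wall invertase that splits sucrose outside the cell. It stood at 3.27, 5.79 and 4.23 CPM in drought and 86.2, 367 and 32.7 CPM in control. All control plants were above all drought plants, but they differed from each other by over 10-fold, and the log2 fold change of -5.19 (SE 0.93, edgeR adjusted p = 0.0174) ran from -5.69 to -3.74 with each plant left out. ClCG01G020770 (chr1:34818924-34833493), a chitinase, cuts the polymer of fungal cell walls. It stood at 10.5, 13.6 and 12.8 CPM in drought and 166, 260 and 129 CPM in control (log2 fold change -3.91, SE 0.33, adjusted p = 0.00349). It had the lowest adjusted p of the members in any function list, with close drought plants, and the call held in all 11 alternatives. Beta glucosidase 16, ClCG03G013570 (chr3:27998664-28013773), from an enzyme class that removes glucose from glycosides, had 16.6, 16.2 and 9.60 CPM in drought and 112, 147 and 251 CPM in control (-3.59, SE 0.40, adjusted p = 0.00491), a fall that also held throughout.

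Peroxidase 55 (ClCG11G009520), one of the secreted peroxidases that act on the cell wall, stood at 2.46, 2.79 and 2.44 CPM in drought and 34.3, 61.5 and 14.2 CPM in control (log2 fold change -3.84, SE 0.54, edgeR adjusted p = 0.00883). A pair of neighbouring genes on chromosome 8 described as glutamate receptor 2.7, a family of plant ion channels, fell together. ClCG08G015980 had 2.93, 11.3 and 5.38 CPM in drought and 68.8, 138 and 35.8 CPM in control (-3.62, adjusted p = 0.0189), and ClCG08G015990 had 0, 0.202 and 0.138 CPM in drought and 2.05, 3.26 and 1.02 CPM in control (-4.14, adjusted p = 0.0385). Being near relatives, they may share reads. The other large falls were a second peroxidase (ClCG09G014870, -4.59), a leucine-rich repeat protein kinase (ClCG07G013510, -4.20), an aspartyl protease (ClCG01G020550, -3.58) and early nodulin 16 (ClCG09G002920, -3.56). Their calls, and those of the invertase and ClCG08G015990, were lost with any single drought plant left out (adjusted p of 0.0644 to 0.163), and without control replicate 1 so were those of all of these but the invertase (0.0645 to 0.116). Without control replicate 3 the second peroxidase had 0.0872. Without drought replicate 3 peroxidase 55 had 0.0537, and ClCG08G015980 had 0.0595 to 0.0910 without drought replicates 1 or 3 or control replicate 1.

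**Figure D4:**
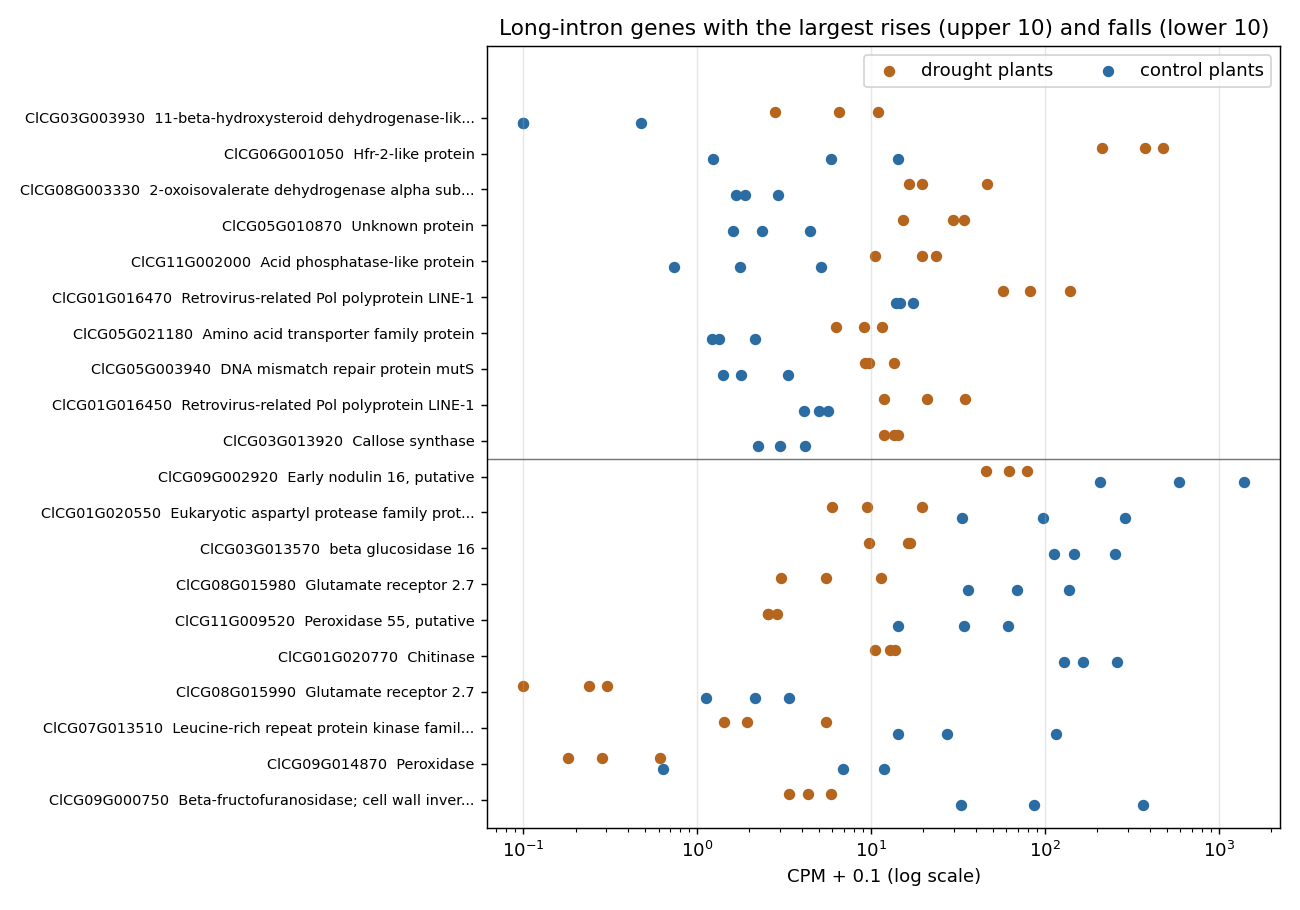
CPM plus 0.1 on a log axis in each of 3 drought plants and 3 control plants, for the 10 long-intron genes with the largest rises (upper) and the 10 with the largest falls (lower) among called members whose groups did not overlap. The control plants of the invertase spread over 10-fold (32.7 to 367 CPM), whereas the drought plants of chitinase and peroxidase 55 lay close together.

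Gene descriptions were at hand for 221 members, 215 of them tested, and 135 of these were called, 99 higher and 36 lower. The descriptions come mostly from lists of genes that the study called on these same samples, so members without a call are largely missing from the function lists and the counts below are not independent evidence of direction. Values given after a gene ID in the following are log2 fold changes and adjusted p from edgeR. Of the 819 tested members without a description, 3 were called, and all 3 were lower.

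The counts of each list stand beside 99 higher and 36 lower among the 215 tested members with a description. Of 18 tested members that copy or repair DNA, 11 rose, 1 fell and 6 did not pass the test, with a median log2 fold change of 1.11. DNA gyrase subunit B (ClCG04G005580), which supercoils the DNA of plastids and mitochondria, stood at 83.4, 74.7 and 77.7 CPM in drought and 36.8, 31.7 and 31.8 CPM in control. The plants within each group were alike and the groups far apart (1.23, SE 0.18, edgeR adjusted p = 0.00899), but other genes touch its span. An origin recognition complex subunit (ClCG08G000100, 1.61, adjusted p = 0.0107), which marks where replication starts, and a DNA topoisomerase (ClCG05G026380, 1.08, adjusted p = 0.0108), which relaxes twisted DNA, rose too. The 1 member of this list that fell was a DNA replication helicase, dna2 (ClCG05G002760, -2.45, adjusted p = 0.0279), named here after its values were seen. A pair of entries of the list is there by wording alone, as ATPases like DNA gyrase B, and neither passed the test. With any drought plant left out the origin and topoisomerase genes had adjusted p of 0.0502 to 0.0659, and gyrase subunit B had 0.0553 without drought replicate 3.

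Of 18 tested members of RNA polymerases and RNA processing 10 rose and none fell, and 17 of the 18 had a log2 fold change above 0 (median 0.83). A family member of RNA-dependent RNA polymerase, ClCG03G016200 (chr3:31216981-31235767), makes double-stranded RNA for small RNA pathways. It stood at 33.3, 35.0 and 32.5 CPM in drought and 8.13, 10.7 and 8.46 CPM in control (1.88, SE 0.21, edgeR adjusted p = 0.00491), and its call held in all 11 alternatives. A polypeptide of general transcription factor 3C (ClCG09G014660, 1.07), which recruits RNA polymerase III, and an RNA helicase (ClCG05G006990, 1.24) rose with adjusted p of 0.0224 and 0.0208. With any drought plant left out these last 2 genes had adjusted p of 0.0711 to 0.113, and without control replicate 1 ClCG09G014660 had 0.0811. With the replicate block 5 members of the list were called higher.

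In translation 4 of 8 members rose and none fell. These were a 30S ribosomal protein S1 (ClCG04G001230, 0.93, adjusted p = 0.0291 from edgeR), the CCA-adding enzyme that completes tRNA ends (ClCG07G011850, 1.05, 0.0418), a glycine tRNA ligase (ClCG06G002430, 1.06, 0.0422) and a lysine tRNA ligase. Of 5 members of the nuclear pore and the Ran cycle, through which proteins and RNA leave and enter the nucleus, 3 rose, the Ran GTPase-activating protein (ClCG09G022110, 1.11, 0.0165), Nup160 (ClCG06G008360, 1.04, 0.0473) and a nuclear pore membrane glycoprotein (ClCG10G013880, 1.09, 0.0492). In cell division and ubiquitin 4 of 10 rose, among them a tubulin folding chaperone (ClCG06G000530, 1.21, 0.0147), subunit 6 of the anaphase promoting complex (ClCG04G002160, 0.98, 0.0231) and actin-related protein 9 (ClCG05G004420, 1.18, 0.0272). All 23 members of these 3 lists had a log2 fold change above 0. With the replicate block ClCG04G001230 and ClCG10G013880 had adjusted p of 0.0503 and 0.0507. With a drought plant left out the named genes of these lists had 0.0685 to 0.166, except the Ran GTPase-activating protein without drought replicate 1, which stayed called. Without control replicate 1 they had 0.0567 to 0.141, and without control replicate 3 Nup160 and actin-related protein 9 had 0.0640 and 0.0522. Calls were also lost with library totals for Nup160 (0.0761) and actin-related protein 9 (0.0525), with no filter for Nup160 (0.0531) and ClCG10G013880 (0.0542), and with RLE factors, another scaling of the libraries, for ClCG10G013880 (0.0534).

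Of 9 members of membrane traffic 6 rose and 1 fell. Vacuolar sorting protein 39 (ClCG01G008980), a tether of vesicles at the vacuole, stood at 42.9, 46.8 and 47.5 CPM in drought and 23.8, 24.5 and 28.3 CPM in control (0.84, SE 0.18, edgeR adjusted p = 0.0259). The fall was in a beta subunit of coatomer, the coat of vesicles that return from the Golgi (ClCG09G002200, -1.63, SE 0.23, adjusted p = 0.00915). In primary metabolism 10 of 16 rose and none fell. Acetyl-CoA carboxylase (ClCG09G007320), which opens fatty acid synthesis, averaged 61.2 ± 9.86 CPM in drought and 20.2 ± 5.06 CPM in control (SD, n = 3 each), with a log2 fold change of 1.60 and an adjusted p of 0.0110 from edgeR. A 1,4-alpha-glucan branching enzyme (ClCG09G010970), which sets the branches of starch, rose by 2.04 (SE 0.33, adjusted p = 0.0124). With the replicate block 2 members of membrane traffic were called higher. Calls were lost without drought replicates 1 or 3 for the coatomer gene (0.0523 and 0.0640), with any drought plant or control replicate 1 left out for ClCG01G008980 and ClCG09G010970 (0.0539 to 0.127), and without drought replicates 2 or 3 or control replicate 1 for ClCG09G007320 (0.0508 to 0.0577).

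Fewer rises were called in these 7 lists with any drought plant or control replicate 1 left out, as over all tested genes. Of all tested genes 5.31% were higher with all plants. The share was 1.26, 1.27 and 0.981% without drought replicates 1, 2 or 3, and 1.49% without control replicate 1. Without drought replicates 1, 2 or 3, DNA replication and repair had 1, 1 and 0 rises, RNA polymerase and processing 1 each, translation 0, nuclear pore and Ran 1, 0 and 0, cell division and ubiquitin 0, membrane traffic 0, and primary metabolism 2, 1 and 1, and without control replicate 1 the 7 lists had 5, 2, 0, 0, 0, 0 and 2. Without control replicate 2 they had 15, 17, 8, 5, 7, 8 and 11, and 11.4% of all tested genes were higher. These alternatives were added after seeing the data.

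Lower calls outnumbered higher ones in 3 lists. Of 20 tested protein kinases among the members 11 fell and 2 rose (median -1.52). The cysteine-rich receptor-like kinase ClCG01G022230 (32265 bases of intron) had 0.934, 1.26 and 0.781 CPM in drought and 10.4, 6.08 and 11.8 CPM in control (-3.24, SE 0.41, edgeR adjusted p = 0.00700). The receptor-like kinase ClCG06G000820 had 5.39, 6.84 and 7.35 CPM in drought and 57.8, 69.5 and 32.8 CPM in control (-3.03, SE 0.33, adjusted p = 0.00491), and protein kinase 1b (ClCG09G019710) had 19.3, 24.7 and 23.0 CPM in drought and 80.5, 69.9 and 85.8 CPM in control (-1.82, SE 0.20, adjusted p = 0.00491). In all 3 the groups were well apart, and each call held in all 11 alternatives.

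Of 21 tested transporters and channels 9 fell and 5 rose (median -1.59), and of 19 cell wall and secreted enzymes 7 fell and 4 rose (median -1.84). Cyclic nucleotide gated channel 1 (ClCG05G008800), a cation channel, averaged 31.4 ± 1.33 CPM in drought and 99.2 ± 17.9 CPM in control (SD, n = 3 each), with a log2 fold change of -1.66 and an adjusted p of 0.00644 from edgeR. Among the 4 cell wall and secreted enzymes that rose, beta-glucosidase G4 (ClCG11G009820) had 59.4, 43.9 and 50.8 CPM in drought and 14.9, 12.7 and 13.3 CPM in control (1.91, SE 0.20, adjusted p = 0.00490). Both calls held in all 11 alternatives. Without drought replicates 1, 2 or 3, kinases had 3, 4 and 3 falls, transporters and channels 1, 2 and 1, and cell wall and secreted enzymes 4, 4 and 2. Without control replicate 1 the lists had 3, 3 and 5. Of all tested genes 8.08% were lower with all plants, and 1.70, 1.95, 1.19 and 2.53% in those fits.

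**Figure D5:**
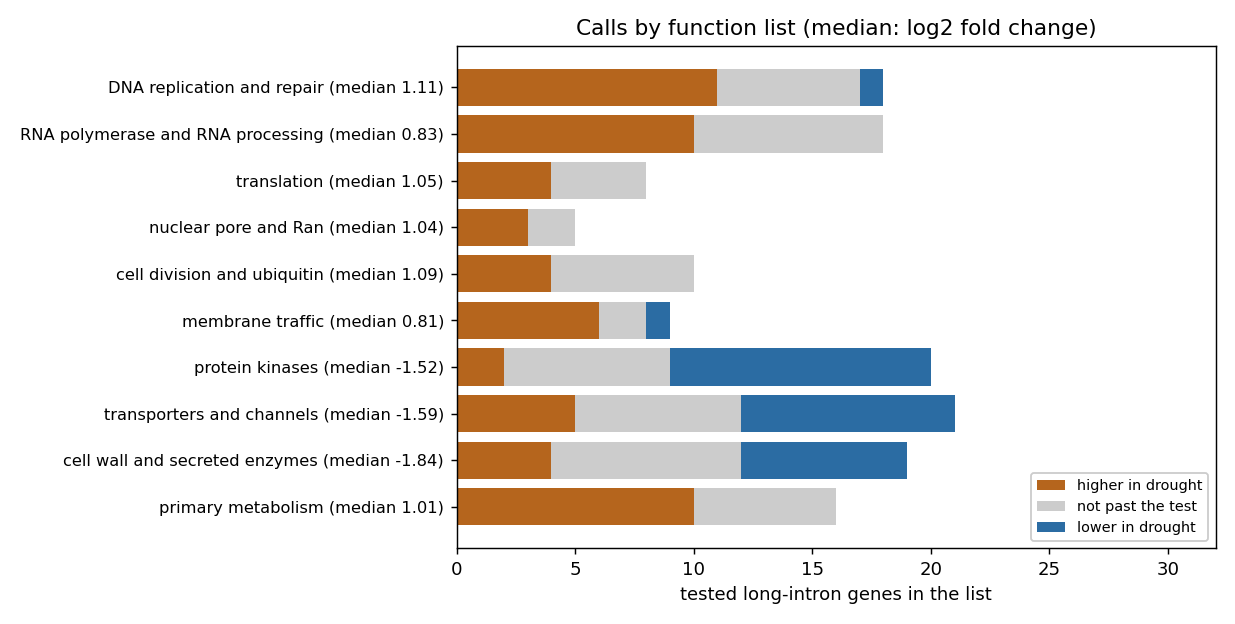
Tested long-intron genes of 10 function lists by call, with the count of genes on the linear axis and the median log2 fold change of each list beside its name. The lists of nucleic acid handling, translation, traffic and primary metabolism had 0 or 1 lower calls, and protein kinases had 11 lower and 2 higher.

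The remaining intron-bearing genes of the same lists are given beside these counts. Their kinases had 92 lower and 16 higher of 182 tested, their transporters and channels 68 and 22 of 135, and their cell wall and secreted enzymes 33 and 13 of 75, so in those lists lower calls outnumbered higher ones with and without long introns. In DNA replication and repair they had 7 higher and 0 lower of 10, in RNA polymerase and processing 20 and 5 of 49, and in translation 10 and 2 of 21. In primary metabolism the remaining genes had 42 higher and 53 lower of 169, with a median log2 fold change of -1.28 against 1.01 in the long-intron genes, in membrane traffic 5 and 5 of 18, in cell division and ubiquitin 5 and 6 of 19 and in nuclear pore and Ran 2 and 0 of 3. The difference between long-intron and remaining genes within a list was not tested, since most genes of the lists are there because the study called them.

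Of the 10 tested members with the most intron 9 had a log2 fold change above 0, and most did not pass the test. In order of intron bases, the 10 were ClCG04G003920 (94750 bases, 0.57), ClCG11G018260 (73538, -1.12), ClCG08G002630 (68892, 1.61), ClCG06G017040 (66873, 0.70), ClCG05G009410 (63712, 0.48), ClCG09G022890 (63058, 0.63), ClCG11G010390 (61961, 0.56), ClCG09G012520 (60526, 0.82), ClCG05G006770 (57833, 1.18) and ClCG05G010970 (56110, 0.10), each with its log2 fold change. Those called were ClCG09G012520 and ClCG05G006770. The first, vacuolar protein sorting 13 (chr9:14759850-14834471), is of a family that moves lipids between membranes, and it stood at 120, 140 and 127 CPM in drought and 65.8, 72.2 and 81.3 CPM in control (SE 0.20, edgeR adjusted p = 0.0370). The second, a calcium-dependent lipid-binding protein (chr5:6835947-6907037), stood at 89.0, 111 and 95.5 CPM in drought and 34.3, 43.9 and 52.3 CPM in control (SE 0.23, adjusted p = 0.0212). Both calls were lost with any drought plant or control replicate 1 left out (adjusted p of 0.0677 to 0.144), and that of ClCG09G012520 also with the replicate block (0.0662).

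At the bound itself, the member with the least intron, ClCG07G016330 (10007 bases, serine carboxypeptidase-like 25), averaged 7.78 ± 3.08 FPKM in drought and 26.7 ± 19.0 FPKM in control. Its counts were 372, 159 and 314 in drought and 852, 1387 and 324 in control. It did not pass the test (log2 fold change -1.84, edgeR adjusted p = 0.0622). The gene just under the bound, ClCG11G016850 (9990 bases), had 435, 547 and 357 counts in drought and 80, 151 and 113 counts in control. With all plants included ClCG11G016850 was called higher (log2 fold change 1.66, edgeR adjusted p = 0.0153).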

How the data were processed

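Leaf RNA-seq of 3 drought and 3 control plants was used. The authors deposited raw read counts per gene, FPKM (count over deposited gene length and library total), gene coordinates and gene lengths, on gene models of Charleston Gray. For mapping and counting, TopHat and HTSeq are named in the paper, whereas featureCounts after fastp and HISAT2 2.1.0 stand in the submitters' processing notes. The kit does not mark strand. The 6 deposited columns of normalized values per sample, the authors' own fold changes and p-values, and a second FPKM table with the same values were not used. Drought columns carry another prefix than the labels and were matched by group and replicate number.

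Counts were fitted with edgeR 4.0.16 (R 4.3.3; TMM, filterByExpr at 10 counts per gene and 15 in all, quasi-likelihood test, two-sided, Benjamini-Hochberg over all 16318 tested genes). Adjusted p under 0.05 is a call. SE was obtained by dividing the log2 fold change by the root of F. CPM use the TMM-scaled totals, and log2 CPM a prior count of 2. Like-count genes are the remaining tested intron-bearing genes, weighted over 10 bins of mean count (and 4 bins of exon length) to the members' numbers. The fit was tested on simulated counts. The weighting was checked only on the measured mean counts that it is built on, and the weighted median on a small worked example. FPKM served for levels only. Alternatives were RLE factors, library totals, DESeq2 1.42.0, no filter, the replicate block, each plant left out, bounds of 5000 and 20000 bases, and members with no overlapping gene. Deviations of same-numbered plants from their group means correlated at 0.148, 0.430 and 0.130, and one unlike-numbered pair, control 3 with drought 1, reached 0.303. The plants are independent, and these values do not establish a pairing. The reported fit held condition only, and the replicate block was an alternative.

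The members, the 10 function lists and 4 marker lists (words in gene descriptions from the study's supplementary lists of called genes, 1 of them shortened, and the deposited table) were chosen with earlier results of these data known. The genes named are the 10 largest rises and falls among called members without overlap of the groups, the 10 with the most intron, the 5 with the highest control FPKM, those beside the bound, and up to 3 with the lowest adjusted p per list with a call, and part of these are summarised. Of 60 such genes 46 were called, 10 of them in all 11 alternatives. With 3 plants per group, the edgeR p-values set the difference between groups against the spread between plants, whose estimate is shared over genes. No sequence of these genes was used here.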

Additional observations from a re-analysis of the deposited data

How the results depend on the processing

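The median log2 fold change of the long-intron genes stayed above that of genes of like count in every alternative run. Called members numbered 138 of 1034 tested (99 higher, 39 lower), or 13.3%, against 13.4% of all tested genes. With DESeq2 they numbered 256 (169 and 87), or 24.8%, against 25.3% of all. The bounds changed the number of genes tested. At 5000 bases 402 of 3153 tested were called (230 and 172), and 41 of 239 (33 and 8) at 20000. With each plant left out 12 to 266 were called (6 to 188 higher, 6 to 78 lower). These were 1.16 to 25.7% of the members, against 2.17 to 26.2% of all tested genes. The share of members above 0 (65.0%) was 63.4% with RLE factors and with DESeq2, 74.1% with library totals, 60.2% and 73.2% at the bounds of 5000 and 20000, and 62.3 to 68.2% with each plant left out. With the replicate block it was 67.0%. Beside the changes given in the report, the block ended no call among the genes named. The share (65.0 against 49.0% in genes of like count) was higher by 11.2 points with exon length weighted, 13.3 and 23.1 at those bounds, and 13.2 to 19.0 with each plant left out. The median of 0.22 was 0.39 with library totals. The control level of 29.0 CPM (median) was 27.2 with library totals, 26.8 and 33.5 at the bounds, and 27.5 to 29.0 with each plant left out. The drought spread of 0.160 was 0.176 and 0.133 at the bounds and 0.125 to 0.155 with each plant left out, and its difference from genes of like count of -0.0392 was -0.0273 with exon length weighted, -0.0572 at 20000 bases and -0.0384 to -0.0213 with each plant left out. The control spread of 0.369 was 0.256 to 0.393 with each plant left out, and its difference of -0.0682 ran from -0.0974 to 0.0158, reversed without control replicate 2. The share of counts differed by 1.10 points, by 3.23 and 0.217 at the bounds. The median of genes with 20000 or more bases lay 0.62 above that of genes with no intron, and 0.52 to 0.73 above with each plant left out.

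ClCG05G025680 (0.01) turned to -0.02 with RLE factors and with DESeq2, and ran from -0.30 to 0.35 with each plant left out, below 0 without drought replicates 1 or 3 or control replicate 2. ClCG10G016190 (-0.02) turned to 0.25 with library totals, 0.21 with the block, and ran from -0.42 to 0.48 with each plant left out, above 0 without drought replicate 2 or control replicates 1 or 3. The cause was not tested. The control level was not weighted on count, which sets it, and no prior count enters CPM. The 74 members that were not tested had a median of 13.0 counts over 6 plants.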

Other observations

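Of the 74 long-intron genes that were not tested, 32 had more counts in drought and 41 more in control. ClCG10G014450 had 7, 8 and 0 counts in drought and 7, 2286 and 0 counts in control, so nearly all of its counts came from control replicate 2. ClCG00G000380, DNA-directed RNA polymerase IV subunit 1, which makes precursors of small RNAs in plants, had 94, 7 and 30 counts in drought and 0, 2 and 0 counts in control. The gene with the most intron of all, ClCG02G010630 (168909 bases), had 2, 10 and 4 counts in drought and 8, 4 and 8 counts in control.

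Among annotated genes 93 pairs of long-intron genes were next to each other. In 4 pairs both genes were called, and in 3 of them in the same direction. Of all tested genes 13.4% were called. The same count for neighbouring pairs of other genes is not given here, so whether 4 of 93 is more than usual is not known. Besides the callose synthase and glutamate receptor pairs, the pairs with both genes called were the following. An FtsH protease (ClCG01G008970, 0.72) lay beside vacuolar sorting protein 39, both higher. In opposite directions, an ACC oxidase-like gene (ClCG05G004410, -1.25) lay beside actin-related protein 9 (1.18).

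Another 17 models outside the annotation had 10000 or more bases between start and end that are not exon. Of these 12 were tested, 3 were higher and 1 lower, against 5.31% and 8.08% of all tested genes. Their median log2 fold change was 0.23, with 7 of the 12 above 0, too few to show a balance of directions.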
